A study of Mus musculus with 10 samples.

Results

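Immune checkpoint receptors and their ligands were examined in 10 arrays of B16 melanoma tumors. The genes were 5 receptors (Pdcd1, Lag3, Havcr2, Tigit and Ctla4) and 5 ligands (Cd274, Pdcd1lg2, Lgals9, Cd80 and Cd86), taken as every probe set annotated to exactly 1 of these symbols. This gave 13 probe sets for 9 of the 10 genes, out of 34945 single-symbol probe sets for 18193 genes. Tigit had no probe set under its own symbol here and is not analysed here. The tumors were labelled Bach2-deficient (5 samples) or WT, for wild type (5 samples). All had the C57BL/6 strain background, and B16 is a transplantable melanoma line of the same strain. Bach2 encodes a transcriptional repressor of lymphocytes, and the comparison asks how its deficiency changes the RNA of a tumor. The labels name no deleted part of Bach2 and do not say whether host or tumor cells lacked it, nor the animals' age or sex. RNA came from dissociated whole tumors, so fewer cells of a type and less RNA per cell cannot be told apart.

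Checkpoint receptors are surface proteins of activated T cells, and some of NK and myeloid cells, that dampen activation when their ligand is bound. PD-1 (Pdcd1) binds PD-L1 (Cd274), which many cell types including tumor cells show after interferon-γ, and PD-L2 (Pdcd1lg2), found mainly on dendritic cells and macrophages. CTLA-4 (Ctla4) competes with the costimulatory receptor CD28 for CD80 and CD86 on antigen-presenting cells, TIM-3 (Havcr2) binds galectin-9 (Lgals9), and LAG-3 binds MHC class II.

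All 9 measured genes rose in the Bach2-deficient tumors, with a median change of 2.17 on the log2 scale, against a median of -0.06 over all 18193 genes. Here and below, rose and fell mean a limma adjusted p under 0.05 over all genes, each read by its brightest probe set. By that rule 16.3% of all genes rose and 12.4% fell. Of the 9 genes 0 fell, also at an unadjusted p under 0.05. In 8 of the 9, every Bach2-deficient array lay above every WT array, which held for 11.2% of all genes. Pdcd1 and Pdcd1lg2 changed by 3.71 and 3.53, Cd86 and Havcr2 by 2.53 and 2.47, and Lgals9, Cd274 and Cd80 by 1.17 to 1.25. By single probe sets 12 of 13 rose, with a median change of 1.78 (-0.05 over all probe sets), where 14.1% of all probe sets rose and 10.1% fell. Separate animals are not stated for the 5 tumors of a group, and p-values therefore reflect only sample-to-sample spread, which may be technical.

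**Figure D1:**
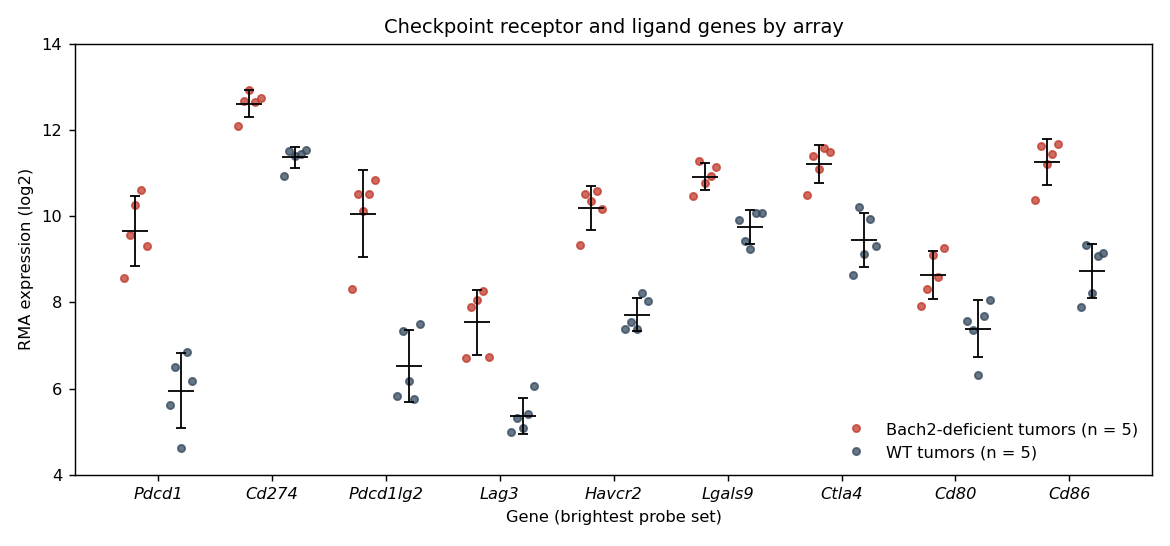
RMA expression (log2) of the 9 measured checkpoint genes on each array, Bach2-deficient tumors in red beside WT tumors in dark blue; bars are the mean and SD of 5 arrays. The groups share no range in 8 genes and overlap for Cd80.

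Several features of the arrays moved with the groups. The probe sets of Bach2 read 4.70, 5.38 and 5.89 in Bach2-deficient and 5.75, 5.73 and 6.96 in WT tumors (log2 means), with limma adjusted p-values of 0.0330, 0.371 and 0.0615 over all probe sets, and 1 of 3 therefore fell. No source used here says where these probe sets lie relative to a deletion. The poly-A spike controls, added before labelling, read 10.03 ± 0.106 on Bach2-deficient and 12.1 ± 0.184 on WT arrays (log2, SD, n = 5 each). Xist, a female-specific RNA of X inactivation, was high on all WT arrays and on Bach2-deficient replicate 2, and low on the other Bach2-deficient arrays. The mean of 9 T cell markers ran from 8.86 to 10.1 in Bach2-deficient and from 6.10 to 7.47 in WT tumors, and all 9 rose. The mean of 9 macrophage and dendritic cell markers ran from 9.64 to 10.6 in Bach2-deficient and from 8.39 to 9.38 in WT tumors, and 6 rose. For 3 NK cell markers the ranges were 7.84 to 9.73 and 4.81 to 6.07, and all 3 rose. The 9 melanocyte markers were bright in both groups, 11.7 to 12.4 in Bach2-deficient and 12.2 to 12.4 in WT tumors, and 3 fell. The 3 B cell markers ran from 4.94 to 9.17 and from 6.12 to 7.42, with 0 called in limma and 0 unadjusted. The 4 endothelial markers ran from 4.75 to 5.75 and from 4.77 to 5.15, with 1 risen and 1 fallen. Their part in the results on checkpoint genes was not tested beyond the comparisons with markers below. The spike controls and genotype cannot be told apart, and Xist and genotype can be told apart only through Bach2-deficient replicate 2.

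Pdcd1 (1449835_at), the receptor PD-1 of activated and chronically stimulated T cells, had the largest change of the 9. It read 8.57, 9.56, 10.26, 10.60 and 9.30 in Bach2-deficient tumors, replicates 1 to 5, against 5.61, 6.49, 4.63, 6.85 and 6.17 in WT tumors (log2). Every Bach2-deficient array lay far above the highest WT array. The rise of 3.71 (SE 0.47, 95% interval 2.67 to 4.75) is 13.1-fold, with a limma adjusted p of 0.000560. With high Xist as a term in the model, the change rests on Bach2-deficient replicate 2, the 1 array of its group with high Xist, against the 5 WT arrays. Its error is taken from the spread of the other arrays, so this lone array is assumed to vary like them. On that basis the change of Pdcd1 was 3.61 (adjusted p = 0.0374). With the melanocyte marker mean as a covariate it was 3.16 (adjusted p = 0.0377).

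Both PD-1 ligands rose, by different amounts. Cd274 (1419714_at), encoding PD-L1, read 12.09, 12.67, 12.94, 12.65 and 12.74 in Bach2-deficient tumors and 10.94, 11.52, 11.41, 11.45 and 11.55 in WT tumors. The groups did not overlap, and WT replicate 1 stood low in its group. The rise was 2.37-fold, a change of 1.25 with a 95% interval of 0.86 to 1.63 and an SE of 0.17 (limma adjusted p = 0.000819). With the melanocyte covariate it was 0.97 and just passed (adjusted p = 0.04996). Pdcd1lg2 (1450290_at), encoding PD-L2, read 8.31, 10.51, 10.11, 10.52 and 10.84 in Bach2-deficient tumors and 5.83, 7.33, 6.18, 5.76 and 7.51 in WT tumors. Bach2-deficient replicate 1 lay well under its group, yet above all WT arrays. The rise of 3.53 (SE 0.52, 95% interval 2.38 to 4.69) is 11.6-fold, with a limma adjusted p of 0.00110. With the melanocyte covariate it did not pass (2.47, adjusted p = 0.0627).

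Setting ligand beside receptor on each array, 7 pairs of genes were compared. A difference between 2 probe sets on 1 array has no meaning as a level, but its shift between groups shows unequal change. Cd274 minus Pdcd1 averaged 2.96 ± 0.61 in Bach2-deficient and 5.42 ± 0.82 in WT tumors (log2, SD, n = 5 each), a shift of -2.46 with no overlap. Its 2-sided exact permutation p was 0.00794, the smallest these groups allow, and 0.0111 adjusted over the 7 pairs. As these probe sets read them, PD-L1 RNA rose by less than PD-1 RNA. Pdcd1lg2 minus Pdcd1 averaged 0.40 ± 0.80 and 0.57 ± 1.06, a shift of -0.17 (exact permutation adjusted p = 0.778). That miss does not show equal change. Pdcd1lg2 minus Cd274 shifted by 2.29, with means of -2.56 ± 0.76 in Bach2-deficient and -4.85 ± 0.71 in WT tumors (exact permutation adjusted p = 0.0111, n = 5 each). Probe sets differ in affinity and saturation, and how far that contributes to unequal changes was not tested.

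The promoters of Pdcd1, of its ligand genes Cd274 and Pdcd1lg2, and of Lgals9 are shown. Whether promoter letters bear on the unequal changes was not tested. Each sequence is the gene's strand from 250 bases before to 50 after the RefSeq start (GRCm38.p6). Promoters of 8 of the 10 genes were in the table used. They were searched on both strands for the letters GAAANNGAA (the core of interferon-responsive elements, 8.56% of all 32851 promoters) and TGANTCA (the AP-1 type of site, which BACH2 also binds, 7.81%). Capitals mark matches, and no match overlapped another. The windows are Cd274 at chr19:29367188-29367487 (plus strand), Pdcd1lg2 at chr19:29410669-29410968 (plus), Lgals9 at chr11:78984875-78985174 (minus) and Pdcd1 at chr1:94052504-94052803 (minus).
Cd274: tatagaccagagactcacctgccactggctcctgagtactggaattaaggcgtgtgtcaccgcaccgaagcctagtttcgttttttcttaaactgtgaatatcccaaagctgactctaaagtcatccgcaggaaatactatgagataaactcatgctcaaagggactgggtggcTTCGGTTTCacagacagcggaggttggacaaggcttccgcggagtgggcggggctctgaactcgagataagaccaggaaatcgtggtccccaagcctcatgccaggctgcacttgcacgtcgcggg
Pdcd1lg2: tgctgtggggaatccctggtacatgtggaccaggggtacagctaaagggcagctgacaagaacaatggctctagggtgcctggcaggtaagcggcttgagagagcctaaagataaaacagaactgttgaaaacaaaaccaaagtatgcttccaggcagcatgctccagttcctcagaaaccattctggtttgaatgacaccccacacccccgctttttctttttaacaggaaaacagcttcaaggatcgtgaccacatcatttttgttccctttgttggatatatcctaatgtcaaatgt
Lgals9: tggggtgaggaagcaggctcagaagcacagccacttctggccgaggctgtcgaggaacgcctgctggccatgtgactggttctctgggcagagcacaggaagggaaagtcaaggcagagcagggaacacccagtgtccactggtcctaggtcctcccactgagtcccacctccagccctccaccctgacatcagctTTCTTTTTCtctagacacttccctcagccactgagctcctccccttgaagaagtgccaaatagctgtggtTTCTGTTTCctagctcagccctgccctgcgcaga
Pdcd1: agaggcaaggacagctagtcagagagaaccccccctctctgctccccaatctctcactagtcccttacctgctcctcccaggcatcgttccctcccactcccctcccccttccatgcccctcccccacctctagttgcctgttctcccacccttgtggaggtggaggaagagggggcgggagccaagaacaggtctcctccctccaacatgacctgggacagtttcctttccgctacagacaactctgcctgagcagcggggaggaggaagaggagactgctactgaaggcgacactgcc
Cd274 held 1 match of GAAANNGAA, on the opposite strand as TTCGGTTTC, and Lgals9 held 2. Neither Pdcd1lg2 nor Pdcd1 held either motif in this window. Of the promoters not printed, Ctla4 held 1 match of GAAANNGAA, Havcr2 and Cd80 each held 1 of TGANTCA, and Tigit held none. A match is a run of letters and says nothing of binding in these tumors.

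Havcr2 (1451584_at), encoding TIM-3, a receptor of exhausted T cells that dendritic cells and macrophages also carry, had the smallest adjusted p of the 4 receptors. It read 9.33, 10.51, 10.36, 10.58 and 10.17 in Bach2-deficient tumors and 7.39, 7.55, 7.39, 8.23 and 8.02 in WT tumors. All Bach2-deficient arrays exceeded all WT arrays. The rise was 5.54-fold (change 2.47, SE 0.26, limma adjusted p = 0.000275). Its ligand gene Lgals9 (1421217_a_at), encoding galectin-9, a sugar-binding protein with many other partners, read 10.48, 11.28, 10.78, 10.93 and 11.14 in Bach2-deficient tumors and 9.92, 9.42, 9.25, 10.08 and 10.09 in WT tumors. The gap between the groups was narrow, and Lgals9 rose 2.25-fold (change 1.17, SE 0.21, limma adjusted p = 0.00270). It did not pass with the melanocyte covariate (1.04, adjusted p = 0.10001). Lgals9 minus Havcr2 averaged 0.73 ± 0.35 in Bach2-deficient and 2.03 ± 0.29 in WT tumors, a shift of -1.30 (exact permutation adjusted p = 0.0111, n = 5 each). As these probe sets read them, the ligand gene rose by less than the receptor gene.

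Lag3 (1449911_at), encoding an inhibitory receptor of activated T and NK cells, read 6.72, 7.90, 8.07, 8.27 and 6.75 in Bach2-deficient tumors and 4.99, 5.31, 5.09, 5.41 and 6.06 in WT tumors. Bach2-deficient replicates 1 and 5 stood low in their group but above every WT array. The rise was 4.496-fold (change 2.17, SE 0.34, limma adjusted p = 0.00154), and it did not pass with the melanocyte covariate (1.46, adjusted p = 0.0866). Of the MHC class II genes, whose products LAG-3 binds, H2-Ab1 and H2-Eb1 rose by 2.11 and 2.05 (limma adjusted p = 0.000237 and 0.000937). Fgl1, a secreted ligand of LAG-3, changed by -0.25 and did not pass (adjusted p = 0.254).

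Ctla4 (1419334_at), carried by regulatory and activated T cells, read 10.49, 11.41, 11.09, 11.59 and 11.50 in Bach2-deficient tumors and 8.64, 10.21, 9.12, 9.95 and 9.31 in WT tumors. The groups came close at Bach2-deficient replicate 1 and WT replicate 2 but did not overlap. It rose 3.41-fold (change 1.77, SE 0.31, limma adjusted p = 0.00250). It did not pass with the melanocyte covariate (1.31, adjusted p = 0.123). With the Xist term, again replicate 2 alone against WT, the change was 1.96 (adjusted p = 0.0633).

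The ligands that CTLA-4 shares with CD28 differed in their changes, as read by their brightest probe sets. Cd86 (1449858_at), which is present on resting antigen-presenting cells and increases on activation, read 10.37, 11.63, 11.21, 11.44 and 11.68 in Bach2-deficient tumors and 7.90, 9.33, 8.22, 9.08 and 9.15 in WT tumors. No arrays overlapped, and Cd86 rose 5.77-fold (change 2.53, SE 0.33, limma adjusted p = 0.000642). Its dimmer probe set 1420404_at changed by 2.54 (SE 0.18), with arrays from 9.17 to 10.02 in Bach2-deficient and from 6.90 to 7.56 in WT tumors. Cd80 (1427717_at), induced on activated antigen-presenting cells, read 7.92, 8.32, 9.11, 8.60 and 9.26 in Bach2-deficient tumors and 7.57, 7.36, 6.31, 7.68 and 8.06 in WT tumors. WT replicate 5 lay above Bach2-deficient replicate 1, so the groups overlapped. The rise was 2.38-fold, with a limma adjusted p of 0.0215 and a change of 1.25 (SE 0.34) whose 95% interval ran over 0.49 to 2.01.

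The call of Cd80 was lost without Bach2-deficient replicate 3 (1.13, adjusted p = 0.0525) or replicate 5 (1.10, adjusted p = 0.0538) and with the melanocyte covariate (1.30, adjusted p = 0.199). Replicate 2 alone, as in the fit with the Xist term, lay 0.93 above the WT mean (adjusted p = 0.372). Of its other probe sets, 1432826_a_at changed by 1.78 and 1451950_a_at by 1.09 (limma adjusted p = 0.0140 and 0.0299 over all probe sets). The call of 1451950_a_at was lost when Bach2-deficient replicate 2, 3, 4 or 5 or WT replicate 1, 2 or 4 was left out, and with repeated quantile normalization (0.98, adjusted p = 0.0531). Both probe sets also lost their call with the melanocyte covariate and in the fit with the Xist term. The dim probe set 1454372_at, with means of 4.98 in Bach2-deficient and 4.86 in WT tumors, changed by 0.11 (95% interval -0.33 to 0.56, adjusted p = 0.713). Cd86 minus Cd80 averaged 2.62 ± 0.46 in Bach2-deficient and 1.34 ± 0.68 in WT tumors, a shift of 1.28 (exact permutation adjusted p = 0.0111, n = 5 each). Cd86 minus Ctla4 shifted by 0.76 (exact permutation adjusted p = 0.0111) and Cd80 minus Ctla4 by -0.52 (adjusted p = 0.333). Cd80 stands in these pairs by 1427717_at alone. Its probe set 1432826_a_at changed by more, 1.78 against 1.25, and pairs with it by itself were not tested. In all, 5 of the 7 pairs passed with each gene read by its brightest probe set. The pairs share genes, so their results are not independent. How often pairs drawn from all genes would pass was not worked out, so this count has no share to stand against.

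**Figure D2:**
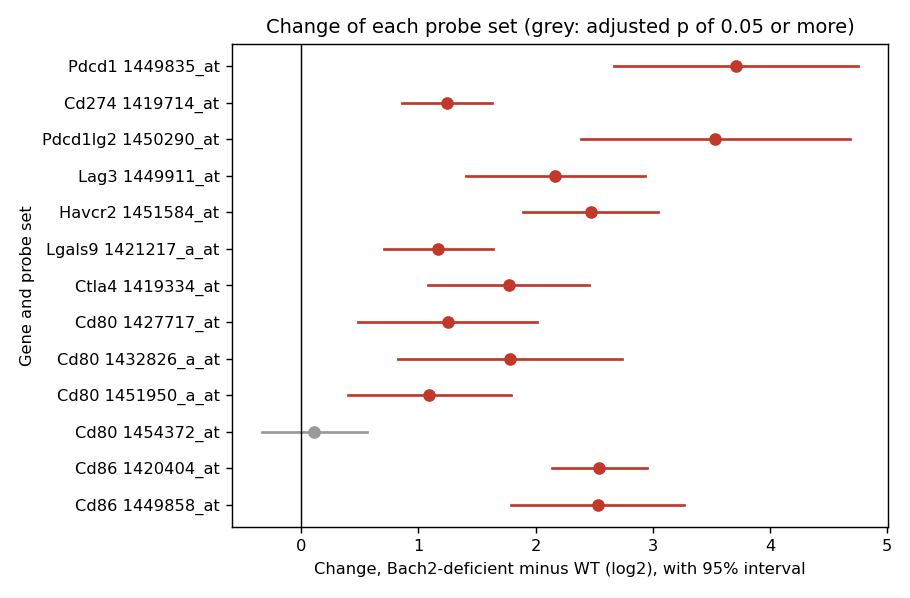
Change of each of the 13 probe sets (log2, Bach2-deficient minus WT) with its 95% interval from limma over all probe sets; grey marks the probe set that did not pass. Pdcd1 and Pdcd1lg2 lie farthest right, at 3.71 and 3.53, and Cd80 1454372_at lies at 0.11.

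The receptors were then set against T cell markers, to see whether they moved more or less than RNA of T cells at large. On each array the mean of 9 T cell markers (Cd3d, Cd3e, Cd3g, Cd247, Cd2, Cd5, Cd6, Trat1 and Ubash3a), which differed by 2.49, was subtracted from every gene. Pdcd1 was higher in this measure, at 0.16 ± 0.50 in Bach2-deficient and -1.06 ± 0.68 in WT tumors (log2, SD, n = 5 each). The shift of 1.22 had a limma adjusted p of 0.00356 and an exact permutation p of 0.00794, and no arrays overlapped. For replicate 2 alone against WT, the fit with the Xist term, the shift was 0.75 (adjusted p = 0.320). Only 0.467% of all genes were higher by this measure and 96.1% were lower, since the markers themselves rose and the median of all genes shifted by -2.55. The markers changed unequally, by 1.10 (Ubash3a), 2.12 (Trat1), 2.12 (Cd3e), 2.29 (Cd6) and 2.51 (Cd5). Cd3d changed by 2.67, Cd2 by 2.71, Cd3g by 3.41 and Cd247 by 3.48. Pdcd1 (3.71) changed by more than each, but by little more than Cd247 and Cd3g, so the size of its shift depends on which markers are averaged. Havcr2 shifted by -0.02 (95% interval -0.83 to 0.79) and Lag3 by -0.32 (-1.14 to 0.49), and neither shift passed (adjusted p = 0.962 and 0.446). Havcr2 is also carried by myeloid cells, and against the macrophage and dendritic cell markers used below it shifted by 1.18 with no overlap (limma adjusted p = 0.000362). Ctla4 averaged 1.72 ± 0.32 in Bach2-deficient and 2.44 ± 0.23 in WT tumors. Its shift of -0.72 missed in limma (adjusted p = 0.0854) and had an exact permutation p of 0.0159. Of 4 receptors, 1 was higher and 0 lower in limma (0 at an unadjusted p under 0.05), and 1 was higher and 1 lower by the exact test.

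The ligands were set against macrophage and dendritic cell markers (Csf1r, Adgre1, Cd68, Itgam, Itgax, Lyz2, Mrc1, Flt3 and Zbtb46) in the same way. Their mean differed by 1.29, the median of all genes shifted by -1.35, and 2.94% of all genes were higher and 86.1% lower in this measure. Pdcd1lg2 averaged -0.18 ± 0.68 in Bach2-deficient and -2.42 ± 0.82 in WT tumors, a shift of 2.25 (limma adjusted p = 9.81e-05). Cd86 averaged 1.03 ± 0.20 in Bach2-deficient and -0.21 ± 0.42 in WT tumors, a shift of 1.24 (limma adjusted p = 0.000419). Both had an exact permutation p of 0.00794 and kept their call in every alternative tried. The markers themselves changed unequally, by 0.19 (Zbtb46), 0.36 (Lyz2), 0.49 (Mrc1), 0.63 (Flt3) and 0.92 (Cd68), and by 1.93 (Csf1r), 2.10 (Adgre1), 2.27 (Itgax) and 2.68 (Itgam). Pdcd1lg2 (3.53) changed by more than each of them, and Cd86 (2.53) by more than all but Itgam, so the shift of Cd86 depends on which markers are averaged. Cd274 shifted by -0.04 (95% interval -0.59 to 0.51), Lgals9 by -0.12 (-0.68 to 0.45) and Cd80 by -0.04 (-0.72 to 0.65). These ligands were therefore not told apart from the marker mean. Cd274 (1.25), Lgals9 (1.17) and Cd80 (1.25) changed by more than Cd68 (0.92) and by less than Csf1r (1.93). Their shifts near 0 thus also depend on which markers are averaged. Of the 5 ligands, 0 were lower in limma, also unadjusted and by the exact test. Tumor cells and other cells can carry Cd274 and Lgals9 as well. All genes share the error of the subtracted mean, and limma gave the 9 genes one common SE (0.415) against T cell markers, so the exact tests, 9 in all and not adjusted, stand beside it.

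**Figure D3:**
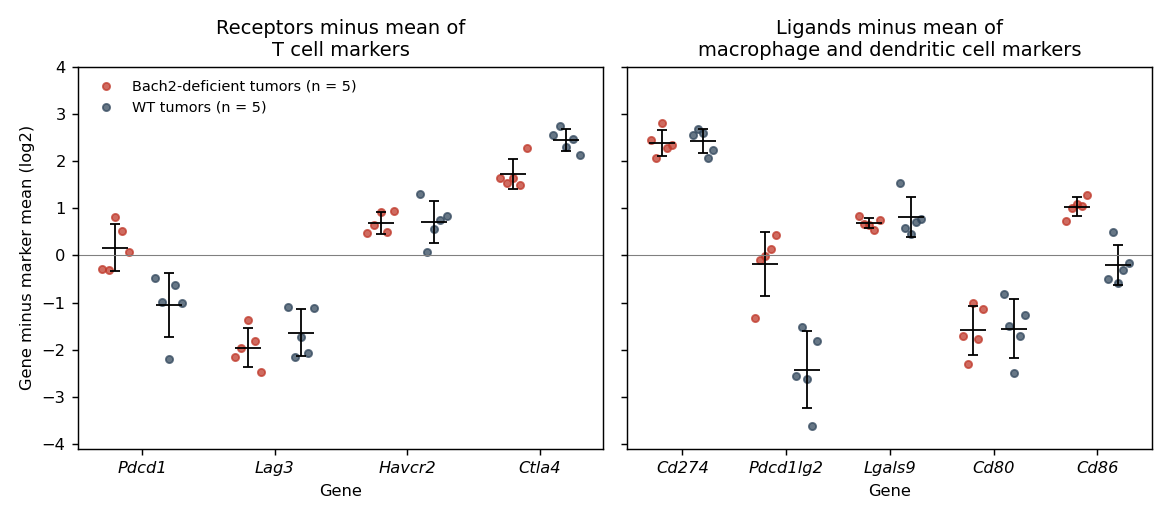
Receptor genes minus the mean of 9 T cell markers (left) and ligand genes minus the mean of 9 macrophage and dendritic cell markers (right), log2, per array; bars are mean and SD of 5 arrays, Bach2-deficient tumors in red left of WT tumors in dark blue. The groups separate for Pdcd1, Pdcd1lg2 and Cd86, and overlap for the other genes.

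Within the Bach2-deficient group, replicate 1 had the lowest value of its group in all 9, on average 0.87 under the group mean. That array also had the lowest T cell marker mean (8.86) and the highest melanocyte marker mean (12.4) of its group. Replicate 4 had the highest value for 4 genes and replicate 5 for 3. Replicate 5 was high in Pdcd1lg2, Cd80 and Cd86 but low in Lag3 (6.75) and Pdcd1 (9.30). Among WT tumors, replicates 1 and 3 were each lowest in 4 genes, and replicate 5 was highest in 5. Replicate 2, the Bach2-deficient array with high Xist, lay within the range of its group for 8 genes and was the highest for Lgals9 (11.28). It exceeded every WT array in all 9 genes, by sizes against the WT mean from 0.93 for Cd80 to 3.99 for Pdcd1lg2.

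**Figure D4:**
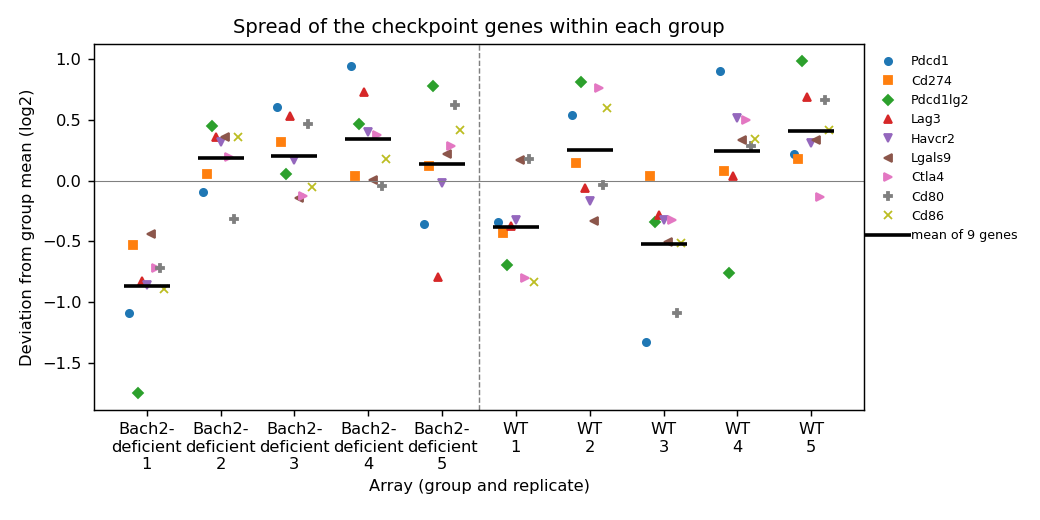
Deviation of each checkpoint gene from its group mean (log2) on each array, with the mean of the 9 genes as a black line. Bach2-deficient replicate 1 lies lowest, with a mean deviation of -0.87.

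Genes with the most similar profiles were found by the smallest root mean square difference between centred log2 values over the 10 arrays. Only genes with a mean at or above the 30th percentile of gene means were searched. Closest to Pdcd1 were Nkg7, a granule protein of cytotoxic lymphocytes (0.39), Cd96, a receptor of T and NK cells (0.40), and the kinase gene Stk26 (0.43). They changed by 3.90, 3.96 and 3.69, in the same order. Closest to Cd274 were Fcgr3 (0.106) and Fcgr2b (0.121), both Fcγ receptor genes of myeloid cells, with Fosl2, an AP-1 subunit gene (0.107), between them. They changed by 1.28, 1.24 and 1.14. A shared size of change is part of this likeness.

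Other genes of the checkpoint pathways mostly moved the same way. Of 14 other inhibitory and costimulatory receptor genes, 12 rose, with a median change of 1.85. Cd96, which shares ligands with TIGIT, rose by 3.96 (SE 0.47) against a WT mean of 4.98, and Klrc1, encoding the inhibitory receptor NKG2A, rose by 3.69 (SE 0.49). Ceacam1 (1.25, adjusted p = 0.0746) and Btla (1.22, adjusted p = 0.148) did not pass. Of 15 other ligand genes, 8 rose and 2 fell, with a median of 0.69. The risen genes include the MHC class II presentation genes H2-Aa (1.26), H2-Ab1, H2-Eb1 and Cd74 (1.95). The other risen genes were Cd48 (1.65), Icosl (1.28), Tnfrsf14 (1.21) and Lgals3 (0.69). H2-Ab1 and H2-Eb1, given above, led the rises. Cd276, encoding B7-H3, fell by 0.65 (adjusted p = 0.0464) and Nectin3 fell by 1.35 (adjusted p = 0.0108). The TIGIT ligand genes Pvr (0.32) and Nectin2 (-0.11) did not pass, nor did Vtcn1 (-0.34), Cd200 (-0.08) and Fgl1.

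Signalling genes downstream and upstream of the checkpoints were read as well. Of 3 phosphatase genes that act at inhibitory tails, Ptpn6 (SHP-1) and Inpp5d (SHIP-1) rose by 1.93 and 2.31, while Ptpn11 (SHP-2), a partner of PD-1, changed by -0.24 (limma adjusted p = 0.0643). Of 9 genes of the interferon-γ route and PD-L1 partners, 6 rose and 1 fell, with a median of 1.56. Irf1, a transcription factor that drives Cd274, rose by 3.24 (SE 0.25, adjusted p = 8.84e-05), and Ifng rose by 5.84 (SE 0.60) against a WT mean of 4.95. Cmtm6 and Cmtm4 encode membrane proteins that stabilise PD-L1 in human cells. Cmtm6 rose by 1.63 and Cmtm4 fell by 1.12 (limma adjusted p = 0.00311 and 0.00155). Ifngr2 (0.40) and Stat3 (0.08) did not pass. Of 8 transcription factor genes linked to checkpoint receptors, 7 rose, with a median of 2.64. Eomes rose by 3.67 against a WT mean of 4.88, Tox by 2.90, and Nfatc2 changed by 0.01 and did not pass (adjusted p = 0.973). The WT means of Cd96, Ifng and Eomes are under 4.983, the 30th percentile of gene means, where signal and background are hard to separate. Their changes are given without folds. The WT mean of Vtcn1 (3.58) is under that level too. So are those of Itgam (4.72), Cd247 (4.91) and Ncr1 (4.95), which belong to the marker means above. Pdcd1 was under it on WT replicate 3 (4.63), which enters its fold.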

How the data were processed

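RNA of 10 tumors was read on 1-colour Affymetrix arrays. The deposited values are log2 expression per probe set, made by the authors with RMA and Partek per the submitters' processing notes; their versions and settings are not stated. RMA corrects background, normalizes between arrays and shrinks changes of dim genes. Values were used as deposited, groups and replicate numbers came from the sample titles, and precision is limited by having 5 arrays a group.

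Of 45101 probe sets, 64 were controls, 34945 had 1 gene symbol, 932 several and 9160 none. Each gene was read by its single-symbol probe set with the highest mean, which gave 18193 genes. Changes are Bach2-deficient minus WT from a linear model with moderated variances (limma 3.58.1, R 4.3.3, 2-sided), Benjamini-Hochberg adjusted over all genes or probe sets, tested on simulated data. Pair differences used exact permutation tests (scipy 1.17.1, 252 splits). Promoters came from RefSeq.

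The genes, lists, motifs and alternatives (listed in the closing section) were chosen with earlier results of these data known. Named are the 9 genes, the 3 genes most like Pdcd1 and Cd274, and on each list the 2 called genes with the smallest p and those not called. The genes that fell (Nectin3, Cd276 and Cmtm4), Cmtm6 and the remaining risen genes among the other ligands were named after their values were seen. Listed genes without a probe set of their own symbol are not analysed here, and 1 motif searched is not reported here. Deviations of same-numbered arrays from their group means correlated at 0.0062 to 0.323, all positive. Arrays of unlike number were not compared in this way, so these values cannot show whether the numbers pair the samples. The titles state no pairing, and the main fits treat the samples as unpaired. Fits with a replicate block are in the closing section.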

Additional observations from a re-analysis of the deposited data

Results flagged for a closer look

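Among 26 groups of 5 arrays (13 probe sets in 2 groups), 2 held an array far from the others by Dixon's criterion, which chance alone gives in about 1 of 20 groups. Pdcd1lg2 read 8.31 in Bach2-deficient replicate 1, with a gap to its neighbour of 0.713 of the group's range. Cd274 read 10.9 in WT replicate 1, with a gap of 0.765 of the range. Leaving out the Bach2-deficient array gave a change of 3.97 for Pdcd1lg2, and leaving out the WT array gave 1.14 for Cd274, and both kept their call.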

How the results depend on the processing

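All 9 genes kept their direction in all 162 fits of single genes under the alternatives (mean of probe sets, dimmest 30% left out, repeated quantile normalization, trended robust moderation, array weights, replicate block, Xist term, melanocyte covariate, each array left out), and 153 fits kept the call. The melanocyte covariate differs between the groups, which widens the error. With it 4 of the 9 genes (Pdcd1, Cd274, Havcr2 and Cd86) and 3 of the 13 probe sets passed, where 2.65% of all genes rose. The numbers of other receptor, other ligand, phosphatase, interferon-γ route and transcription factor genes that rose were then 5, 2, 1, 3 and 3. The Xist term compares Bach2-deficient replicate 2 alone with the 5 WT arrays and is no adjusted comparison of the groups. By it 7 of the 9 genes (5.66% of all genes) and 5 other ligand genes rose, and against T cell markers 0 receptors were higher. With the replicate block all 9 genes rose. Against T cell markers 1 receptor, Ctla4, was lower with the replicate block, with array weights and by the exact permutation test, which was added after the data were seen.

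Shifts near 0 that never passed changed sign in some settings, and the cause was not tested. Cd80 1454372_at changed by -0.10 with the Xist term. Against T cell markers, Lag3 shifted by 0.11 with array weights, and Havcr2 by 0.11 as the mean of probe sets, 0.21 with array weights, 0.072 with the covariate and -0.18 to 0.13 with 1 array left out. Against macrophage and dendritic cell markers with the covariate, Cd274 shifted by 0.031, Lgals9 by 0.10 and Cd80 by 0.36. With array weights Lgals9 shifted by 0.0067 and Cd80 by 0.15. With 1 array left out these ranged from -0.15 to 0.043 (Cd274), -0.21 to 0.064 (Lgals9) and -0.27 to 0.15 (Cd80), and Pdcd1lg2 minus Pdcd1 from -0.59 to 0.073. Over all genes, the numbers that rose and fell were 2962 and 2264, against 1030 and 387 with the Xist term and 483 and 192 with the covariate. Leaving out Bach2-deficient replicate 2 gave 1388 falls, and leaving out replicate 4 gave 1447. With the replicate block they were 2842 and 2110.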
